A study of Mus musculus with 7 samples.

Results

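Collagen chains were examined in lesional skin of bleomycin-treated mice that carried or lacked OX40L. The members were all probe sets whose gene symbol in the platform annotation consisted of Col, digits, a and digits, which gave 44 chains, each with 1 probe set, among 23185 genes with 1 symbol. The samples were 4 from ox40l-/- mice (knockout) and 3 from ox40l+/+ mice (wild type), all C57BL/6 males 9 weeks old that received bleomycin by injection for 3 weeks. OX40L is a costimulatory ligand encoded by Tnfsf4, and bleomycin injection is a common model of skin fibrosis. Every animal was treated, so the values compare genotypes under bleomycin and hold no untreated level. The labels do not say how the null allele was made or whether each sample came from a separate animal, so p-values reflect the spread among these 7 samples alone, and part of that may be technical.

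Collagens are matrix proteins whose alpha chains wind around each other into a rod with a repeated glycine. Fibrillar chains pack into the fibrils that give dermis its strength, and fibril-associated chains with interrupted helices (FACITs) bind to the surface of those fibrils. Network chains form sheets such as the type IV lattice of basement membranes, type VI chains form beaded filaments around cells, and transmembrane chains span the plasma membrane, as Col17a1 does in basal keratinocytes. Excess fibrillar collagen in the dermis is the defining feature of skin fibrosis. The 44 chains fell into 11 fibrillar, 9 network, 9 FACIT, 6 beaded-filament and 4 transmembrane chains, with the anchoring-fibril chain Col7a1, the multiplexins Col15a1 and Col18a1, and Col26a1 and Col28a1 outside those classes.

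Promoter sequence is shown for chains whose pairing or dermal role bears on the values that follow: Col4a1 and Col4a2, which are partners in one trimer and lie side by side in the genome, and the dermal fibril chains Col1a2 and Col3a1. Windows span 250 bases before to 50 bases after the start site, from RefSeq on build GRCm38.p6, and 35 of the 44 chains matched an entry in that table. For the type IV pair, capitals mark the 78 bases that both windows share, at chr8:11312777-11312854. The Col4a1 window is chr8:11312777-11313076 on the minus strand and the Col4a2 window is chr8:11312555-11312854 on the plus strand.
Col4a1: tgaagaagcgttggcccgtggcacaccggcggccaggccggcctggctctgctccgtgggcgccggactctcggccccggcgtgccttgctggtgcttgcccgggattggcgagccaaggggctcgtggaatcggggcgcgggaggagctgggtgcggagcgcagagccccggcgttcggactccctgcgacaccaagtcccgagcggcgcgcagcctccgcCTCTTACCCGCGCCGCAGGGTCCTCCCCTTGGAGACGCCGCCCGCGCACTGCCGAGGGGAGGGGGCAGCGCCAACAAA
Col4a2: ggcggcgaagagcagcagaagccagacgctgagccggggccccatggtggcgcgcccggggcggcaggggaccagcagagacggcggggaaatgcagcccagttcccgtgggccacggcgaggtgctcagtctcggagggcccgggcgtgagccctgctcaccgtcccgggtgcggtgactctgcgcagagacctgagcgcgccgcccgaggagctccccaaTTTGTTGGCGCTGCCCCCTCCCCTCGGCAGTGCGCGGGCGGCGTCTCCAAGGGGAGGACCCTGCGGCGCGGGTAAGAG
In the next pair, capitals mark matches to CCAAT or TATAAA on either strand, and no printed match overlaps another. The Col1a2 window is chr6:4505368-4505667 and the Col3a1 window is chr1:45311288-45311587, both on the plus strand.
Col1a2: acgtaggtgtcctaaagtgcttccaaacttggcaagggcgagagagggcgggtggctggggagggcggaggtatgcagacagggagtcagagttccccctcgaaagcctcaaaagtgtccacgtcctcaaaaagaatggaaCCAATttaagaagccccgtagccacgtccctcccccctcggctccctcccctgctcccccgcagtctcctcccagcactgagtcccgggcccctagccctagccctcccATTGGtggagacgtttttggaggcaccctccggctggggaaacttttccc
Col3a1: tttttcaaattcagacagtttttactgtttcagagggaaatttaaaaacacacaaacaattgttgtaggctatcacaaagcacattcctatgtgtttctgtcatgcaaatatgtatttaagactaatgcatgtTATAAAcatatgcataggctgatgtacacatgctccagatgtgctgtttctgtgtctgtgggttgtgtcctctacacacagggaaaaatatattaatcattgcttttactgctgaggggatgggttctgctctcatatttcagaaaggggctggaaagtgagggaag
In Col1a2 a CCAAT match began 109 bases upstream of the start site, and a match on the opposite strand began at the start site. In Col3a1 a TATAAA match began 117 bases upstream. Counting either strand, CCAAT was present in 34.2% of 38 collagen windows and in 37.4% of all 32851 windows, TATAAA in 13.2% and 13.6%, and GGGCGG, the core of a GC box, in 60.5% and 35.7%. These shares describe letters in the windows only.

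The arrays were not equally alike, and that bears on every value given here. Wild type replicate 1 had an SD over genes of 1.67 and wild type replicate 3 one of 1.17, against 1.32 to 1.42 on the other 5 arrays. Pearson's r over genes was 0.951 to 0.966 among those 5 arrays and 0.751 to 0.910 for pairs with wild type replicate 1 or 3. Tnfsf4, the targeted gene, had log2 values of 2.53, 2.60 and 3.65 in wild type and 2.81 to 3.35 in knockout, and where its probe set lies relative to the deletion is not known, so this checks nothing about the labels. Of the markers that define skin, 10 of 10 keratinocyte genes, Krt5 and Krt14 among them, and 12 of 13 measured dermal fibroblast genes had a mean above the median of all values. Scores of 4 other cell types were the mean deviation of the markers from their own means over the 7 arrays. All 4 were lowest on wild type replicate 3. Skeletal muscle (15 genes) was at -1.24 there and 0.01 to 0.67 in knockout, and adipocytes (9 genes) at -0.58 and -0.26 to 0.31. Leukocytes (8 genes) were at -0.44 and -0.35 to 0.24, and endothelium (10 genes) at -0.21 and -0.12 to 0.12. On wild type replicates 1 and 2 muscle was at 0.05 and 0.28, and adipocytes at 0.15 and 0.08. Leukocytes were at 0.44 and 0.25 there, and endothelium at -0.05 and 0.06. In that order, 15, 9, 6 and 7 of these markers had a mean above the median of all values. All genes with such a mean scored 0.205, 0.019 and -0.166 on wild type replicates 1 to 3.

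No collagen chain passed the test for a difference between genotypes. With limma's moderated test, 0 of 44 chains passed a Benjamini-Hochberg adjusted p under 0.05 and 0 had an unadjusted p under 0.05, the backgrounds over all genes being 0.00431% and 1.88%. The smallest unadjusted p was 0.0733, for Col12a1. In 0 of the 44 chains did the genotypes separate, against 1.91% of all genes. The median log2 difference (knockout minus wild type) was -0.028 over the chains and 0.010 over all genes, with 26 chains below 0 and 18 above (59.1% below, against 48.3% of all genes). In whole skin, fewer cells of a type and less RNA per cell cannot be told apart.

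The intervals bound how large a difference these arrays leave room for, given a fit with the same variance in both genotypes. The chains varied more in wild type (median SD 0.434) than in knockout (0.127), so the intervals may be too narrow. The 95% confidence interval contained 0 for 44 of 44 chains, and it lay wholly within a 2-fold change in either direction for 36 of them (81.8%, against 73.7% of all genes). It lay within a 1.5-fold change for 15 chains (34.1%, against 33.0% of all genes), 6 of them of the network class. The chains whose interval reached past 2-fold were Col1a1, Col1a2, Col3a1, Col6a1, Col6a3, Col12a1, Col9a3 and Col4a4.

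**Figure D1:**
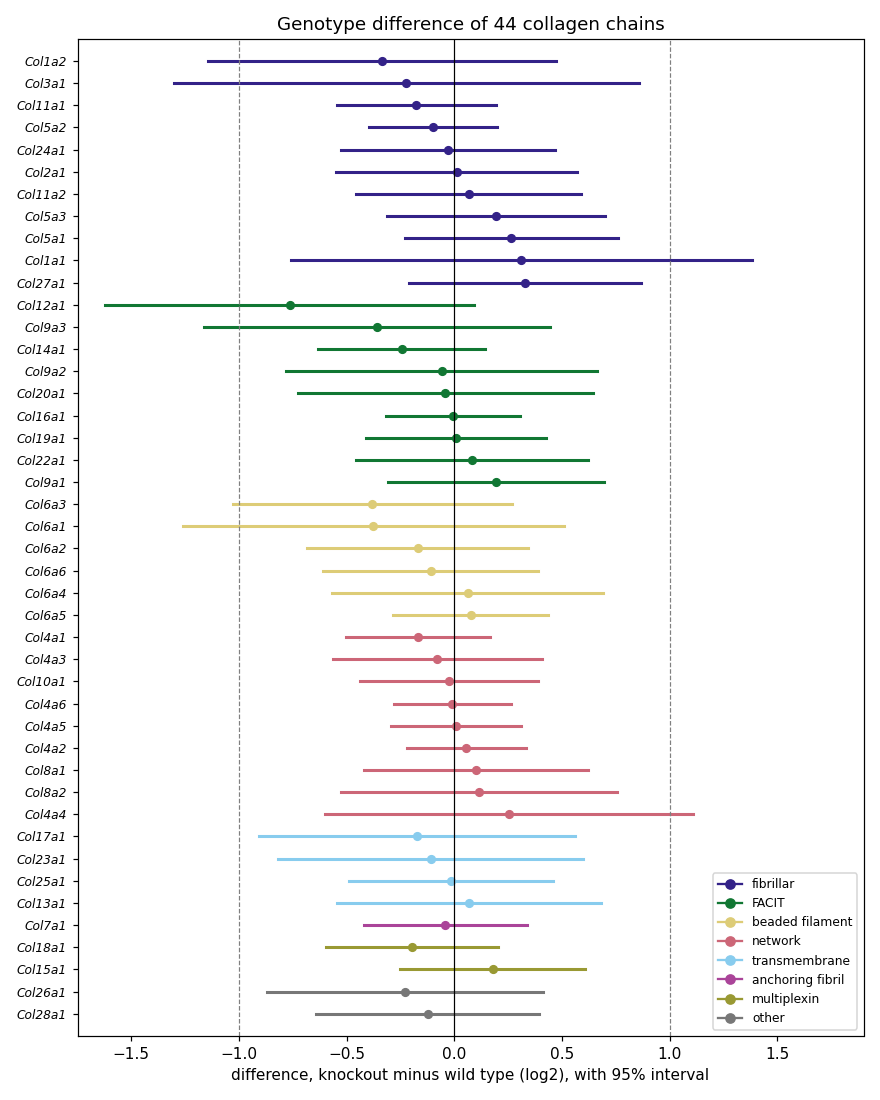
Log2 difference, knockout minus wild type, of each of the 44 chains, grouped by structural class. Points are limma estimates, bars are 95% confidence intervals, and dashed lines mark a 2-fold change in either direction; all 44 bars cross 0.

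Most of the spread lay in wild type. The SD among the 3 wild type arrays exceeded that among the 4 knockout arrays in 37 of 44 chains (84.1%, against 76.9% of all genes), with median SDs of 0.434 and 0.127. In 25 chains all 4 knockout values fell inside the range of the wild type values (56.8%, against 41.2% of all genes). Wild type replicate 2 lay within the knockout range for 27 chains, or 61.4%, near the 62.5% of all genes. Ties were common: 18 chains had one value, identical in every deposited digit, on at least 3 arrays (40.9%, against 27.0% of all genes).

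**Figure D2:**
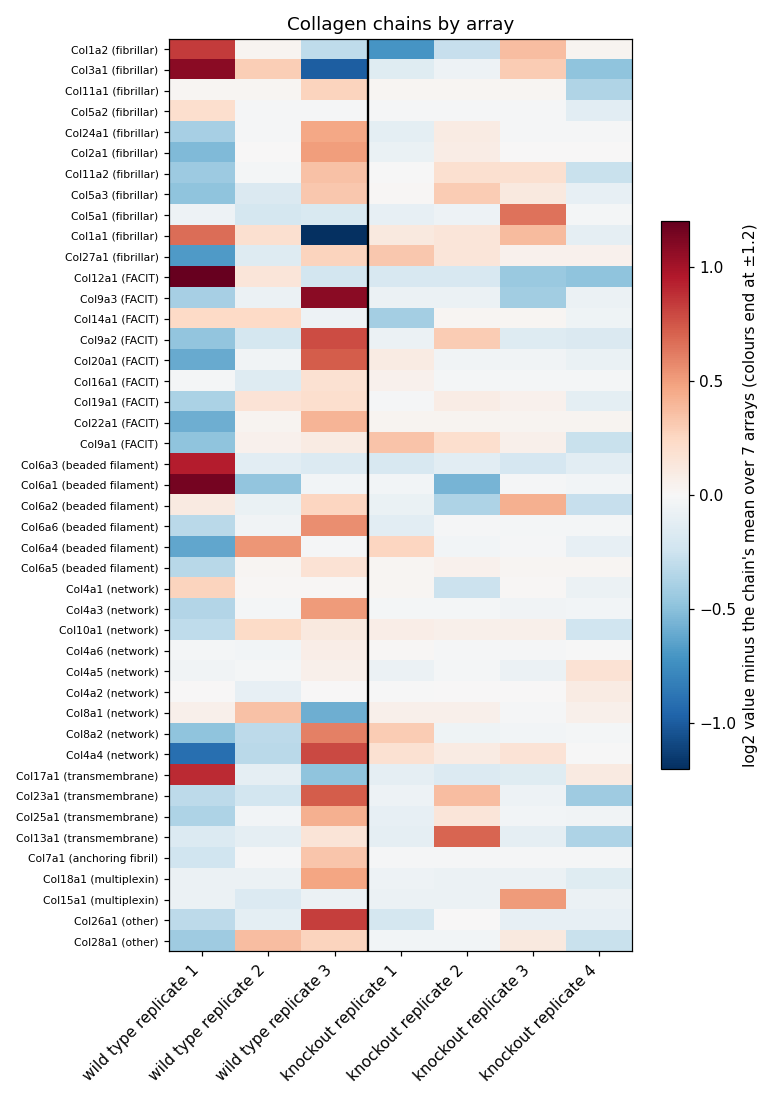
Each row is a chain and each column an array; colour is the log2 value minus that chain's mean over the 7 arrays, and the black line divides wild type from knockout. The strongest colours lie in the columns of wild type replicates 1 and 3, often with opposite sign in the same row.

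Type I and type III collagen are the main fibrils of dermis, and Col1a1 and Col3a1 spanned the widest ranges of the 44 chains in wild type. Col1a1, the alpha-1 chain of type I, had log2 values of 7.05, 6.57 and 4.99 on wild type replicates 1 to 3 and 6.50, 6.53, 6.76 and 6.27 on knockout replicates 1 to 4. The knockout values all lay between the wild type extremes, close to wild type replicate 2. The wild type mean was 6.21 ± 1.08 (SD, n = 3) and the knockout mean 6.52 ± 0.20 (SD, n = 4), and the difference of 0.31 (SE 0.46) had an interval of -0.76 to 1.38. Without wild type replicate 3 it was -0.30. Col1a2, the alpha-2 chain, was at 6.57, 5.77 and 5.43 in wild type and 5.03, 5.45, 6.10 and 5.77 in knockout. Its difference of -0.33 (SE 0.34) moved to -0.009 without wild type replicate 1 and to -0.58 without replicate 3. Col3a1, the type III chain of more compliant fibrils, was at 7.36, 6.57 and 5.29 in wild type and 6.13, 6.21, 6.58 and 5.79 in knockout, with knockout again inside the wild type range. Its difference of -0.22 (SE 0.46) turned to 0.25 without wild type replicate 1 and was -0.78 without replicate 3. The order of these wild type arrays was also that of the dermal fibroblast markers on average. Their mean deviation over 13 genes was 0.55, 0.19 and -0.96 on wild type replicates 1 to 3 and -0.30 to 0.38 in knockout. Sparc fell most, from 10.55 on wild type replicate 1 to 5.35 on replicate 3. Thy1, Sparc, Dpt, Dpp4, Cd34 and Pi16 each fell in that order, and the other measured markers did not. All genes with a mean above the median of all values shared that wild type order, at 0.205, 0.019 and -0.166. The part of fibroblast content in the collagen values was not tested.

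The type V chains regulate the start and width of type I fibrils. Col5a1 was at 4.23, 4.09 and 4.12 in wild type and 4.20, 4.23, 4.94 and 4.27 in knockout, so knockout replicate 3 alone stood high. The difference was 0.27 (SE 0.21) and fell to 0.087 without that array. Col5a2 had the value 4.29 on 5 of the 7 arrays, with 4.50 on wild type replicate 1 and 4.18 on knockout replicate 4, and differed by -0.10 (SE 0.13). Col5a3 was at 4.21, 4.53 and 5.02 in wild type and 4.71, 5.01, 4.81 and 4.60 in knockout. Its wild type extremes lay on both sides of the knockout arrays, and it differed by 0.19 (SE 0.22).

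The remaining fibrillar chains form fibrils of cartilage or are minor components elsewhere. Col27a1 had the largest positive difference of the class: its values were 3.05, 3.57 and 4.00 in wild type and 4.05, 3.87, 3.78 and 3.78 in knockout. Only wild type replicates 1 and 2 lay below all knockout arrays, and the difference was 0.33 (SE 0.23, interval -0.21 to 0.87). It was 0.084 without wild type replicate 1 and 0.56 without replicate 3. Col2a1, Col11a1, Col11a2 and Col24a1 differed by 0.01, -0.18, 0.07 and -0.03. Over the 11 fibrillar chains 6 differences were above 0 and 5 below, with a median of 0.010, near that of all genes.

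**Figure D3:**
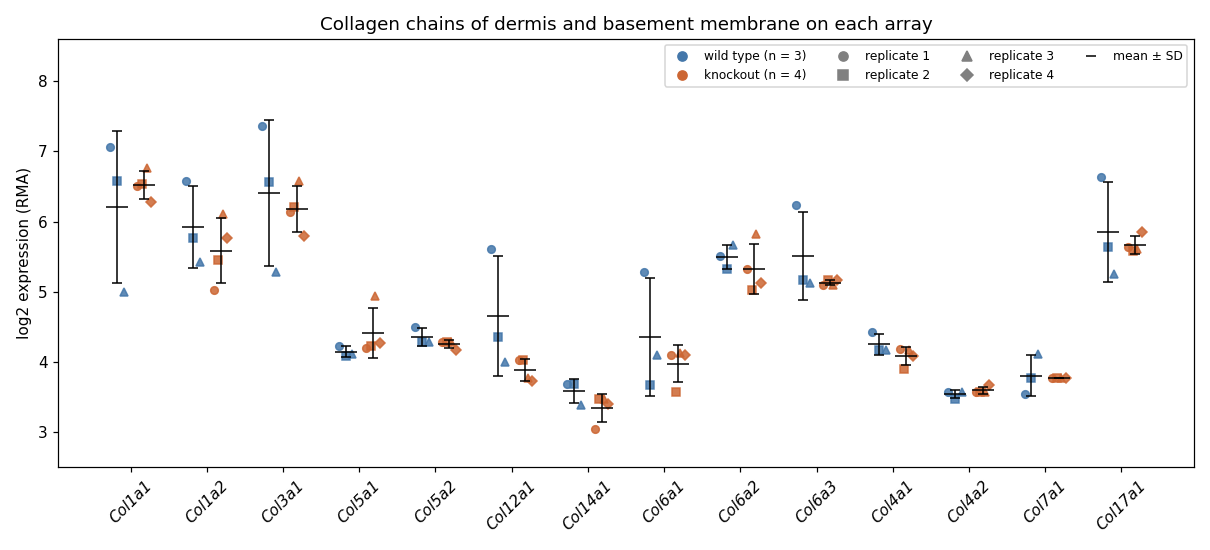
Log2 values of 14 chains of dermis and basement membrane on each array; blue marks wild type (n = 3), orange knockout (n = 4), marker shape the replicate number, and bars the mean with SD. Wild type replicate 1 (blue circle) stands highest for Col1a1, Col1a2, Col3a1, Col5a2, Col12a1, Col6a1, Col6a3, Col4a1 and Col17a1, and the genotypes overlap for every chain.

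Col12a1, a FACIT that links fibrils to surrounding matrix, had the largest difference of all 44 chains. Its log2 values were 5.61, 4.36 and 3.99 in wild type and 4.03, 4.03, 3.78 and 3.73 in knockout. Wild type replicates 1 and 2 lay above every knockout array, while wild type replicate 3 lay below knockout replicates 1 and 2. The difference was -0.76 (SE 0.37, interval -1.62 to 0.09; limma adjusted p = 0.9995), and it was -0.29 without wild type replicate 1 and -1.09 without replicate 3. Col14a1, the FACIT undulin, was at 3.69, 3.69 and 3.39 in wild type and 3.04, 3.47, 3.47 and 3.40 in knockout. Here too only wild type replicate 3 fell within the knockout range, and the difference was -0.24 (SE 0.17).

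Type IX collagen belongs to cartilage fibrils. Col9a1 was at 2.91, 3.45 and 3.49 in wild type and 3.74, 3.59, 3.45 and 3.13 in knockout, which overlapped, and its difference of 0.19 (SE 0.21), the highest among FACITs, was 0.0091 without wild type replicate 1. Col9a2 and Col9a3 differed by -0.06 (SE 0.31) and -0.36 (SE 0.34), and both were highest on wild type replicate 3, at 6.26 and 4.79. Of the chondrocyte markers 10 of 10 were measured, and 3 had a mean above the median of all values. Their mean deviation was also highest on that array, at 0.34, and was -0.40 on wild type replicate 1, against -0.044 to 0.14 in knockout. All genes with a mean below that median moved the same way, at 0.220 on wild type replicate 3 and -0.219 on replicate 1. The part of the chondrocyte markers in the type IX values was not tested. Col16a1, Col19a1, Col20a1 and Col22a1 differed by -0.005, 0.008, -0.042 and 0.08. Of the 9 FACITs 6 were below 0 and 3 above, with a median of -0.042.

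Type VI collagen forms beaded filaments near cell surfaces, and its core chains Col6a1 and Col6a3 were highest on wild type replicate 1. Col6a1 was at 5.29, 3.67 and 4.11 in wild type and 4.11, 3.58, 4.12 and 4.11 in knockout. Only wild type replicate 1 stood above knockout, and the difference of -0.38 (SE 0.38) was 0.09 without it. Col6a3, the largest chain, was at 6.24, 5.16 and 5.13 in wild type and 5.10, 5.16, 5.09 and 5.16 in knockout. All arrays other than wild type replicate 1 lay between 5.09 and 5.16, and the difference of -0.38 (SE 0.28) was -0.017 without that array. Col6a2 followed another order, at 5.51, 5.32 and 5.66 in wild type and 5.32, 5.03, 5.83 and 5.13 in knockout, and differed by -0.17 (SE 0.22). Among the chains that can stand in for alpha-3, Col6a5 had values of 2.18, 2.53 and 2.68 in wild type and 2.53 to 2.56 in knockout, and Col6a4, Col6a5 and Col6a6 differed by 0.06, 0.08 and -0.11. The 6 chains had a median difference of -0.14, with 4 below 0, which came to -0.007 without wild type replicate 3.

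Type IV collagen builds the lattice of basement membranes. Col4a1 was at 4.43, 4.17 and 4.17 in wild type and 4.18, 3.90, 4.17 and 4.08 in knockout, and Col4a2 at 3.58, 3.47 and 3.57 in wild type and 3.57, 3.57, 3.57 and 3.67 in knockout. Both chains overlapped between genotypes and moved little, with differences of -0.17 (SE 0.14) and 0.05 (SE 0.12). The interval of Col4a2, -0.22 to 0.33, was wider only than that of Col4a6. Col4a2, Col4a5 and Col4a6 had means of 3.57, 3.26 and 2.87 over the 7 arrays. These lay below the median of all values, 3.59, where intervals were narrower in general. Col4a5 and Col4a6, partners in the epidermal basement membrane, differed by 0.006 and -0.011. Col4a4 varied most, at 2.33, 2.91 and 4.02 in wild type and 3.42, 3.33, 3.40 and 3.23 in knockout. Its wild type values lay on both sides of the knockout group, and the difference of 0.26 (SE 0.36) was 0.72 without wild type replicate 3 and -0.12 without replicate 1. Col4a3 differed by -0.08, and the other network chains, Col8a1, Col8a2 and the hypertrophic-cartilage chain Col10a1, by 0.10, 0.11 and -0.03. The 9 network chains had a median of 0.006, with 5 above 0.

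Col17a1, the hemidesmosomal collagen of basal keratinocytes, led the transmembrane class. It was at 6.64, 5.64 and 5.26 in wild type and 5.64, 5.58, 5.60 and 5.86 in knockout. Wild type replicate 1 stood high and replicate 3 low, with knockout between them, and the difference of -0.17 (SE 0.31) was 0.22 without wild type replicate 1. Keratinocyte markers were ordered alike on average, though Lor and Flg were not. Their mean deviations over 10 genes were 0.93, -0.08 and -0.80 on wild type replicates 1 to 3 and -0.10 to 0.09 in knockout. Hair follicle markers, 19 measured, were at 3.08, 0.0027 and -0.67 in wild type and -1.16 to -0.18 in knockout. All genes with a mean above the median of all values had the same wild type order, at 0.205, 0.019 and -0.166. With the hair follicle score as a covariate the Col17a1 difference was 0.28. The part of keratinocyte content was not tested. Col13a1, found at cell adhesion sites, was at 3.83, 3.89 and 4.15 in wild type and 3.89, 4.69, 3.89 and 3.63 in knockout, with knockout replicate 2 the highest, and it differed by 0.07 (SE 0.26). Col23a1 and Col25a1 differed by -0.11 and -0.02, which left 3 of the 4 transmembrane chains below 0 and a median of -0.064.

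Col7a1 forms the anchoring fibrils that tie the epidermal basement membrane to dermis. It had the single value 3.77 on all 4 knockout arrays and on wild type replicate 2, with 3.55 and 4.11 on wild type replicates 1 and 3. Its difference of -0.04 (SE 0.16) was -0.17 without wild type replicate 1 and 0.11 without replicate 3. The basement-membrane multiplexins Col15a1 and Col18a1, the latter the source of endostatin, differed by 0.18 and -0.20. Col26a1 and Col28a1 differed by -0.23 and -0.12.

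Class scores, the mean deviation of a class's chains from their own means over the 7 arrays, overlapped between genotypes in the fibrillar, FACIT, beaded-filament, network and transmembrane classes. The fibrillar score ran from -0.063 to 0.020 in wild type and from -0.127 to 0.187 in knockout. The FACIT score was -0.146, 0.018 and 0.355 on wild type replicates 1 to 3 and -0.137 to 0.035 in knockout, and the network score was -0.196, -0.026 and 0.176 against -0.017 to 0.062. On wild type replicate 3 the FACIT score thus stood high while the fibrillar score did not, with fibrillar chains on both sides of their means. Of the 11 fibrillar chains 5 were highest on that array and 2, Col1a1 and Col3a1, were lowest. Of the 9 FACITs 6 were highest there. Col12a1 (3.99, mean 4.22 over the 7 arrays) and Col14a1 (3.39, mean 3.45) lay below their means there. The transmembrane score was 0.011, -0.116 and 0.204 in wild type and -0.182 to 0.262 in knockout, and the beaded-filament score 0.154, -0.027 and 0.130 against -0.177 to 0.035.

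**Figure D4:**
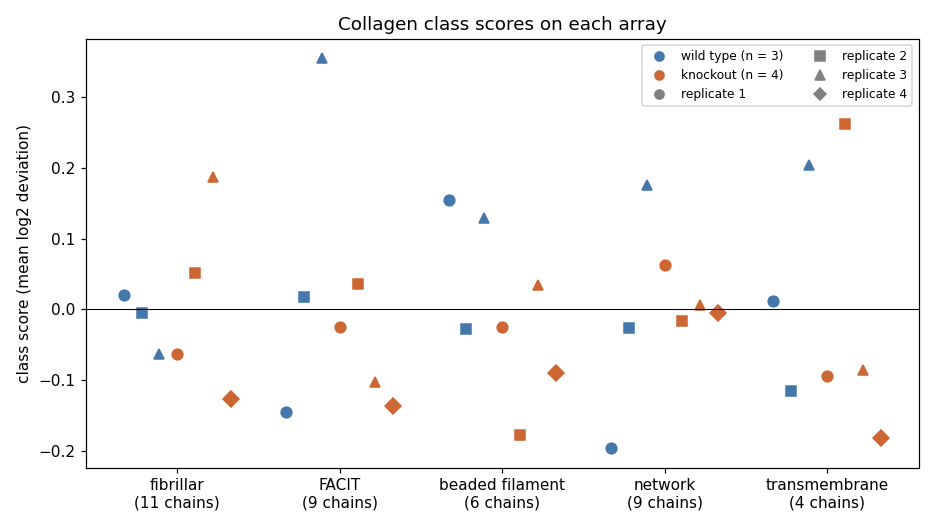
Mean log2 deviation of each class's chains on each array; blue marks wild type, orange knockout, and marker shape the replicate number. Wild type replicates 1 and 3 lie on opposite sides of 0 for the FACIT and network classes (-0.146 and 0.355, and -0.196 and 0.176), with the knockout arrays between them.

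Part of this arrangement followed the brightness of the chains. The 18 chains whose mean lay below the median of all values scored -0.308 on wild type replicate 1 and 0.274 on replicate 3, and all genes below that median scored -0.219 and 0.220. The 26 brighter chains scored 0.098 and 0.099, whereas all brighter genes scored 0.205 and -0.166. After quantile normalization was applied again, the dimmer chains were at -0.08 and 0.10 and all dimmer genes at 0.02 and 0.05, while the brighter chains were at -0.09 and 0.23 and all brighter genes at -0.02 and -0.05. The FACIT score on wild type replicate 3 was 0.34 there and the fibrillar score -0.01. On wild type replicates 1 and 3 the transmembrane score was -0.19 and 0.40, the network score -0.10 and 0.08, and the beaded-filament score 0.07 and 0.17. Col1a1 was then 6.42, 6.45 and 5.24 in wild type and Col3a1 was 6.68, 6.45 and 5.65, so wild type replicate 3 remained the lowest wild type array for both. Col1a2 was 5.97, 5.72 and 5.85, with replicate 2 lowest, and Col17a1 was 6.03, 5.59 and 5.60, with replicates 2 and 3 nearly level. The fall over wild type replicates 1 to 3 in the deposited values then held for Col3a1 but not for Col1a1, Col1a2 or Col17a1. For Col1a1 replicates 1 and 2 were nearly level. Marker scores were not computed again after this step, so they cannot be set against these values.

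Chains of one trimer, of one type or of neighbouring genes were compared with each other over the 7 arrays. Of 8 such pairs 0 passed after adjustment over the 8 (exact permutation tests, two-sided). Col1a1 and Col1a2 had Pearson's r of 0.51 (exact p = 0.255, adjusted 0.51) and Spearman's rho of 0.77 (exact p = 0.0492, adjusted 0.259). Without wild type replicates 1 and 3, the arrays farthest from the Col1a1 median, r was 0.34, and after quantile normalization it was -0.10. Col4a3 and Col4a4, neighbouring genes, had the highest r, 0.90 (exact p = 0.0405, adjusted 0.19; rho 0.63, exact p = 0.143, adjusted 0.259), which was -0.36 without wild type replicates 1 and 3 and so rested on those arrays together. With single arrays left out it ran from 0.85 to 0.92, and it was 0.79 after quantile normalization and 0.80 with one SD for all arrays. Col4a1 and Col4a2, whose promoter windows share 78 bases, had r of -0.13 (exact p = 0.70, adjusted 0.70) and rho of -0.15 (exact p = 0.764, adjusted 0.81), and r was -0.75 without knockout replicate 2 and wild type replicate 1. On the arrays left, Col4a1 held the value 4.17 except on knockout replicates 1 and 4, at 4.18 and 4.08, so that r rested on small departures.

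Among the other pairs, neighbours Col3a1 and Col5a2 had r of 0.74 (exact p = 0.0714, adjusted 0.19; rho 0.67, exact p = 0.143, adjusted 0.259) and 0.79 without wild type replicates 1 and 3, though Col5a2 held one value on 5 arrays. On the arrays left, Col5a2 departed from that value only on knockout replicate 4, so the r of 0.79 rested on that array. Col8a1 and Col8a2 had r of -0.78 (exact p = 0.0571, adjusted 0.19; rho -0.61, exact p = 0.162, adjusted 0.259), which was -0.049 without wild type replicates 2 and 3. Col6a1 and Col6a2 had r of 0.39 (exact p = 0.427, adjusted 0.588; rho 0.74, exact p = 0.069, adjusted 0.259) and 0.28 without knockout replicate 2 and wild type replicate 1. Col4a5 and Col4a6 had r of 0.31 (exact p = 0.441, adjusted 0.588; rho 0.15, exact p = 0.74, adjusted 0.81), which was -0.72 without wild type replicate 3 and knockout replicate 4. That pair was at 0.78 after quantile normalization and at 0.80 with one SD for all arrays, still not past the threshold after adjustment (exact permutation tests, adjusted p = 0.105 and 0.108). Col5a1 and Col5a2 had r of -0.063 (exact p = 0.69, adjusted 0.70; rho -0.20, exact p = 0.81, adjusted 0.81) and -0.068 without wild type replicate 2 and knockout replicate 3. The median r over all 946 pairs of collagen chains was 0.18, as a description.

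**Figure D5:**
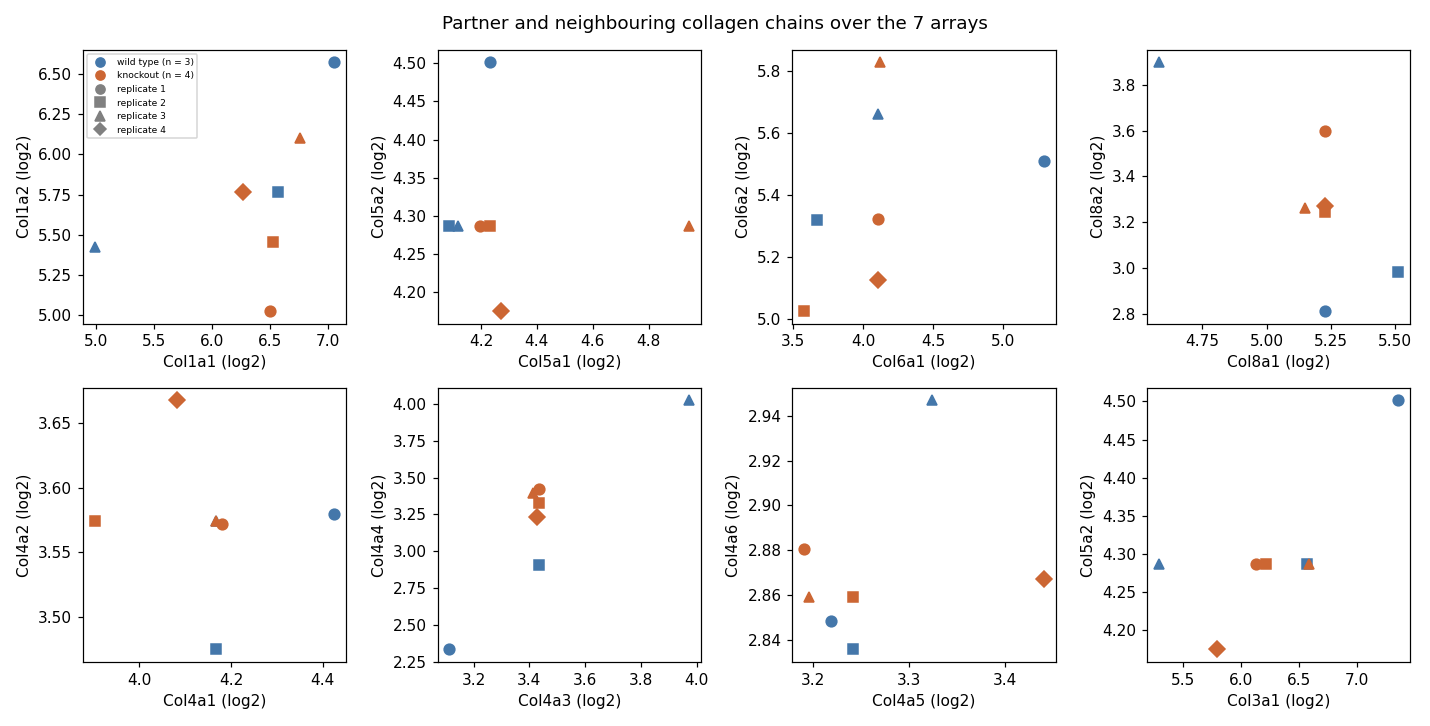
Log2 values of one chain against its partner or neighbour on the 7 arrays, with blue for wild type, orange for knockout and marker shape for the replicate number. In the Col4a3 and Col4a4 panel the 2 ends of the line are wild type replicates 1 and 3, and in the Col5a2 panels 5 arrays share a single value.

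Genes that make, cross-link, bind or degrade collagen gave the same count, and the pair of smallest p is named for each list. By limma's test 0 members of the 4 lists had an adjusted p under 0.05, and 0 had an unadjusted p under it, against 0.00431% and 1.88% of all genes. Of all genes 48.3% had a difference below 0. Folding and modification genes were below 0 in 15 of 21 measured members with a median of -0.08, with Mia3, which exports procollagen from the endoplasmic reticulum, at -0.47 (SE 0.28) and Fkbp14, a prolyl isomerase, at -0.21 (SE 0.14). Cleavage and cross-linking genes were below 0 in 8 of 12 with a median of -0.09, with Bmp1, the procollagen C-proteinase, at -0.48 (SE 0.24) and the lysyl oxidase Loxl4 at -0.17 (SE 0.15). Collagen receptors were below 0 in 6 of 10 with a median of -0.03, with the integrin chain Itga1 at -0.44 (SE 0.25) and the receptor kinase Ddr1 at -0.32 (SE 0.20). Degradation genes were split 5 and 5 with a median of -0.004, with the dipeptidase Pepd at -0.40 (SE 0.22) and the gelatinase Mmp2 at -0.78 (SE 0.52).

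The count of collagen chains past the threshold depended on how the wild type arrays were weighted. With array weights estimated by restricted maximum likelihood, wild type replicate 2 received a weight of 75.4 and wild type replicates 1 and 3 received 0.106 and 0.109. The weighted wild type mean was thus nearly that of replicate 2 alone, so calls from this fit do not measure the spread among wild type arrays. In it 8 of 44 chains passed at a limma adjusted p under 0.05, against 17.4% of all genes. They were Col12a1, Col14a1, Col28a1, Col6a4 and Col8a1, lower in knockout, and Col4a4, Col8a2 and Col27a1, higher. For Col6a4 and Col8a1 this turned the direction, from 0.06 and 0.10 without weights to -0.50 and -0.31. With weights estimated gene by gene that array received 3.72, and 0 chains passed. Without wild type replicate 3, 6 chains had an unadjusted p under 0.05 (12.0% of all genes did): Col12a1 at -1.09, Col3a1 at -0.78, Col4a4 at 0.72, Col27a1 at 0.56, Col8a2 at 0.45 and Col5a3 at 0.41. Without wild type replicate 1 there was 1, Col28a1 at -0.37 (3.18% of all genes). Without both there were 4 (8.73% of all genes), namely Col4a4 at 0.44, Col8a1 at -0.31, Col6a4 at -0.50 and Col12a1 at -0.47, and in these runs 0 chains passed after adjustment, the smallest adjusted p being 0.372, 0.905 and 0.417. The lone wild type array of the last run was assumed to vary like the knockout arrays.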

How the data were processed

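Total RNA of each sample was labelled by a whole-transcript kit and hybridised to 1 Affymetrix array, per the labels' protocols. The authors deposited log2 values made with RMA, per the submitters' processing notes; the RMA version, probe-set definition and genome build are not given in the sources used here. RMA summarises probes by median polish, which can return one value on several arrays. Values were used as deposited, with no filter.

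Of 25206 probe sets, 23185 had 1 gene symbol, 0 had several and 2021 were unnamed here; all 23185 matched the RefSeq table of GRCm38.p6 by Entrez number. The test was limma 3.58.1 under R 4.3.3 (lmFit and eBayes, all 7 arrays, two-sided, Benjamini-Hochberg over 23185 genes, threshold 0.05), and the procedure was tested on simulated data. Correlations used exact permutation of pairings in Python 3.11.15; figures used matplotlib 3.10.9. The number of arrays limits the precision.

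Every array value was given for 14 chains of dermis and basement membrane and for the largest difference in each direction in 5 classes. The knockout values of Col6a5, in the latter set, are given as a range. Other chains are given mainly by their difference, and Col5a3 also by its values. The members, classes and lists were chosen with earlier results of these data known. Alternatives were trend with robust moderation, filters on dim genes (30% and 50%), renewed normalization, array weights, blocks by replicate number or by the number or suffix of the sample codes, covariates, all probe sets and leaving out arrays.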

Additional observations from a re-analysis of the deposited data

Results flagged for a closer look

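In 16 of the 44 chains 1 knockout array stood apart from the other 3 by Dixon's criterion for 4 values, which chance gives in about 1 group of 20. That is 36.4% of the chains, against 20.3% of all genes. In 8 of the 16 (18.2% of the chains, against 8.9% of all genes) the other 3 arrays held one identical value, so any departure met the criterion. The wider gaps were Col6a1 at 3.58 on knockout replicate 2, against 4.11 to 4.12, Col14a1 at 3.04 on knockout replicate 1, against 3.40 to 3.47, Col9a3 at 3.29 on knockout replicate 3, against 3.64, Col11a1 at 2.72 on knockout replicate 4, against 3.10, Col5a1 at 4.94 on knockout replicate 3, against 4.20 to 4.27, Col15a1 at 4.25 on knockout replicate 3, against 3.67 and Col8a2 at 3.60 on knockout replicate 1, against 3.25 to 3.27. The narrower ones were Col6a5 at 2.56 on knockout replicate 2, Col6a6 at 3.43 on knockout replicate 1, Col16a1 at 3.53 on knockout replicate 1, Col22a1 at 3.42 on knockout replicate 3, Col5a2 at 4.18 on knockout replicate 4, Col18a1 at 4.33 on knockout replicate 4, Col10a1 at 3.99 on knockout replicate 4, Col4a2 at 3.67 on knockout replicate 4 and Col8a1 at 5.15 on knockout replicate 3. The 16 were spread over all 4 knockout arrays, with 4, 2, 5 and 5 on replicates 1 to 4.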

How the results depend on the processing

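These arrays are few and 2 of the 3 wild type arrays stand apart, so the sign of a small difference often depends on one of them. The count of collagen chains past the threshold was 0 under 21 of 22 alternatives and 8 with array weights (limma adjusted p of these 8 from 0.0185 to 0.0369). Those weights left the wild type mean almost wholly to replicate 2, so that count does not measure the spread among wild type arrays. The count over all genes, 1, was 4032 with array weights and 0 with trend and robust moderation, renewed quantile normalization, median centring, all probe sets, the code number or suffix as a block, the array SD or the hair follicle score as a covariate, and without wild type replicates 1 and 3; with single arrays left out it ran from 0 to 0. With the replicate number as a block it was also 0, the chain median was -0.010 and no chain was called; same-numbered arrays correlated at -0.086, -0.15 and 0.034 in their deviations from the group means, so the arrays were not treated as pairs.

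With single arrays left out, the median difference ran from -0.128 to 0.097 over all chains, from -0.017 to 0.194 for fibrillar, from -0.228 to -0.0073 for beaded-filament, from -0.15 to 0.18 for transmembrane, from -0.20 to 0.11 for FACIT and from -0.085 to 0.037 for network chains. The beaded-filament median was -0.38 without the dimmest 50% of genes, which leaves 3 chains, 0.0017 with array weights, -0.017 with gene-by-gene weights, which were added after seeing the data, and 0.00042 without wild type replicates 1 and 3. With the code number as a block, where 1 pair of arrays sets the genotype difference, the medians were -0.15 for all chains, -0.16 for fibrillar, -0.22 for FACIT, -0.36 for transmembrane and -0.018 for beaded-filament chains; with the hair follicle score as a covariate the median of all chains was -0.15.

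Of 412 differences of the 19 named chains under the alternatives, 38 turned in sign. Trend with robust moderation, the filters on dim genes and the run with all probe sets leave each difference unchanged. No sign could turn under those settings, and they are counted in the 412. With the code number as a block, Col1a2 was at 0.68, Col3a1 at 1.29, Col6a1 at 0.016, Col6a2 at 0.17, Col14a1 at 0.079, Col17a1 at 0.34, Col27a1 at -0.22, Col4a4 at -0.63, Col9a1 at -0.037, Col13a1 at -0.26 and Col6a5 at -0.14. With the hair follicle score, Col1a2 was at 0.010, Col3a1 at 0.43, Col6a1 at 0.13, Col6a3 at 0.027, Col17a1 at 0.28, Col4a4 at -0.22 and Col6a5 at -0.094, and with the array SD, Col3a1 was at 0.0084 and Col17a1 at 0.00010. With array weights, Col1a1 was at -0.038, Col6a1 at 0.29, Col6a2 at 0.012 and Col17a1 at 0.021, and with gene-by-gene weights Col6a1 was at 0.19. Without wild type replicates 1 and 3, Col1a1 was at -0.055, Col6a1 at 0.31, Col6a2 at 0.0055 and Col17a1 at 0.033. Col6a5 was at -0.0068 after renewed quantile normalization. With single arrays left out, Col13a1 ran from -0.15 to 0.20, Col17a1 from -0.47 to 0.22, Col1a1 from -0.30 to 0.74, Col3a1 from -0.78 to 0.25, Col4a4 from -0.12 to 0.72, Col6a1 from -0.72 to 0.090, Col6a5 from -0.067 to 0.18 and Col7a1 from -0.17 to 0.11.

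The r of Col1a1 and Col1a2 was -0.10 and that of Col6a1 and Col6a2 -0.080 after renewed quantile normalization, which gave 0.23 for Col4a1 and Col4a2. That pair was at 0.58 after median centring, at 0.38 with one SD for all arrays, and at -0.25 to 0.044 with single arrays left out. Col5a1 and Col5a2 were at 0.21 after median centring and at -0.10 to 0.057 with single arrays left out. The cause of these changes was not tested.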
